A study of Mus musculus with 15 samples.

Results

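The sites described here are peaks of the transcription factor ATOH1 in secretory progenitors of the mouse intestinal crypt (Sec-Pro) that lay in a DNase I hypersensitive site (DHS) of enterocyte progenitors (Ent-Pro) and in no DHS of the secretory progenitors themselves. They were chosen by list membership: a peak qualified when at least 1 bp of it was overlapped by a peak of the Ent-Pro DHS list and no base by a peak of the Sec-Pro DHS list. Of 15240 ATOH1 peaks, 804 (5.28%) met the rule. The other ATOH1 peaks were 4838 open in both progenitors, 331 open in Sec-Pro only and 9267 in neither DHS list. "Open" is used below for a peak in a DHS list and nothing more. Because the rule used the ATOH1 list and both DHS lists, the number of sites and their ATOH1 and DHS scores are descriptions without a test, while the histone lists were not used by the rule.

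ATOH1 is a basic helix-loop-helix factor without which the intestinal epithelium forms no secretory cells. In the crypt, cells that express ATOH1 present Notch ligands and, by lateral inhibition, Notch signalling in their neighbours keeps ATOH1 off and directs those cells to the absorptive fate. A DHS marks DNA that is accessible to nuclease, H3K4me2 (dimethylation of lysine 4 of histone H3) is found at promoters and enhancers whether or not they are active, and H3K27ac (acetylation of lysine 27) is found at active ones.

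All mice were of the C57BL/6 strain. Sec-Pro were enriched from crypts either with the Notch inhibitor dibenzazepine (DBZ) or by deletion of Rbpj, the DNA-binding partner of Notch, and goblet cells (GOB) came from villi without Rbpj. Ent-Pro and mature enterocytes (ENT) came from the crypts and villi of Atoh1-/- mice, in which the labels say that no secretory cells remain, and Lgr5+ intestinal stem cells (ISC) were sorted by flow cytometry for the eGFP of Lgr5-eGFP-Cre mice. The ATOH1 peaks were obtained with an antibody to the FLAG tag. Because the Ent-Pro cells come from mice without Atoh1, the factor and the open chromatin of these sites were recorded in different cell populations. A difference between Ent-Pro and Sec-Pro cannot be told apart from the difference in genotype and drug treatment between the mice. Rbpj deletion and DBZ are separate H3K4me2 libraries, and the labels do not say which preparation gave the Sec-Pro H3K27ac, DHS and ATOH1 lists, nor is a sort stated for Sec-Pro.

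There are 15 samples, of which 12 have a peak list and 3 input samples were not analysed here. Each cell population has 1 library per assay, except that H3K4me2 has 2 libraries in Ent-Pro (replicates 1 and 2) and 2 in Sec-Pro (Rbpj deletion and DBZ). Where both sides have 1 library, no test between cell populations could be made, and for H3K4me2 in the progenitors an exact permutation test over 2 against 2 libraries cannot give a p below 0.333. Nothing in the labels says whether the Ent-Pro replicates came from separate animals. The ATOH1 list held 15240 peaks with a median width of 186 bp, the Sec-Pro DHS list 31980 and the Ent-Pro DHS list 38595. The 9 histone lists held from 63293 to 92279 peaks. The sources used here give no read numbers, so the depth of each list is unknown. Shares are given with Wilson 95% intervals. Differences of shares are given in percentage points with Newcombe 95% intervals, in the paired form for 2 lists over the same sites. Both kinds of interval cover the counting error over sites only, and sites of 1 library are not replicates of a condition. No gene is named from a position because no annotation of the files' build, mm9, was used here.

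The 804 sites lay under weak Ent-Pro DHS. Scores are the authors' own, and a score percentile is the share of the peaks in a list that score at or below a given peak. The median percentile of the Ent-Pro DHS was 38.7 at these sites (quartiles 24.4 and 55.2) against 80.7 at the ATOH1 peaks open in both progenitors (quartiles 66.6 and 91.2). In the lower 50% of the Ent-Pro DHS list were 544 of the 804 sites and 539 of the 4838 open in both. The Ent-Pro DHS without a Sec-Pro DHS and without an ATOH1 peak, 10813 in number, were weaker still, with a median percentile of 24.4. The DHS themselves were narrow, with a median width of 277.5 bp at the 804 sites and 668 bp at the sites open in both.

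**Figure D1:**
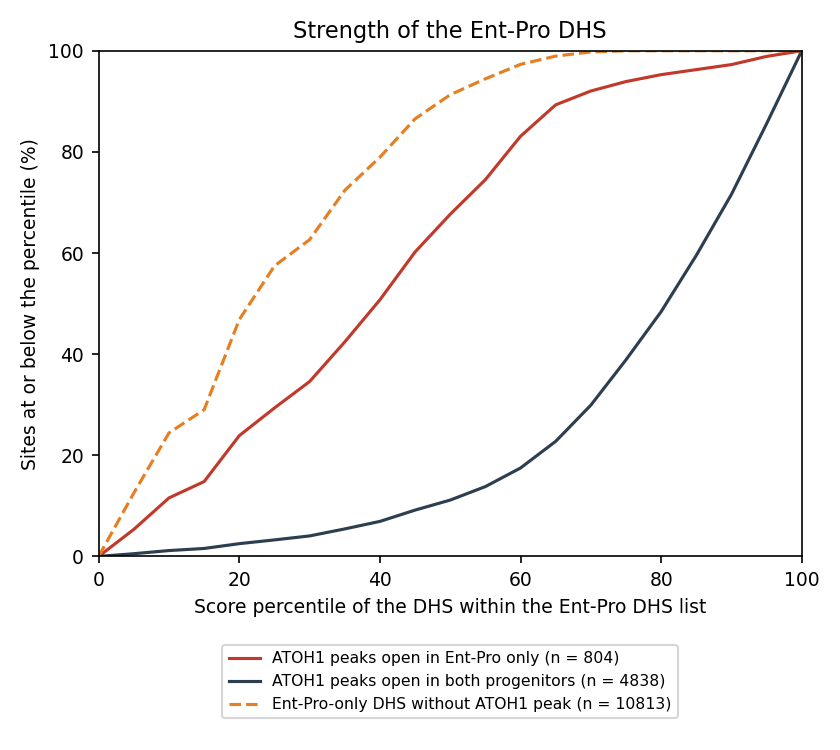
Cumulative share of sites (vertical axis, %) by the score percentile of their DHS within the Ent-Pro DHS list (horizontal axis). The curve of the 804 sites open in Ent-Pro only lies between that of the 10813 Ent-Pro-only DHS without an ATOH1 peak and that of the 4838 ATOH1 peaks open in both progenitors, with medians of 38.7, 24.4 and 80.7.

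ATOH1 scores of the sites were not low. Their median ATOH1 score was 7.75 (quartiles 4.88 and 14.8), at percentile 60.4 of the ATOH1 list. The peaks open in both progenitors had a median of 6.47, those open in Sec-Pro only 8.17 and those in neither list 6.33. In the upper 10% of the ATOH1 list lay 103 of the 804 sites, and the highest score among them was 290.6, against 309.3 in the whole list. The median peak was 207.5 bp wide, against 206 bp for those open in both.

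Most of the sites were covered to at least 50% by the Ent-Pro DHS, but less fully than the peaks open in both progenitors. The Sec-Pro DHS was usually not near. The median site had 153 bp, or 74.5% of its width, under the DHS (lower quartile 47.6%), and 589 of 804 were covered to at least 50%. At the peaks open in both, the median was 100% and the lower quartile 88.4%. From the 804 sites, the nearest Sec-Pro DHS was at a median distance of 5924 bp. A Sec-Pro DHS lay within 200 bp of 135 sites and within 1 kb of 235, and 291 sites had none within 10 kb. At the edge of the rule, 26 sites had at most 10 bp under the Ent-Pro DHS and 18 had a Sec-Pro DHS at most 10 bp away. Just outside it were 19 ATOH1 peaks of the class open in both with at most 10 bp under the Sec-Pro DHS, and 62 of the class in neither list with an Ent-Pro DHS at most 10 bp away.

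A split of the sites, made after the data were examined, separates those in a DHS of Ent-Pro alone from those at the flank of a DHS present in both cell types. The Ent-Pro DHS of 695 sites was overlapped by no Sec-Pro DHS anywhere along its length. The Ent-Pro DHS of the other 109 was overlapped by a Sec-Pro DHS beside the ATOH1 peak. All 49 sites in the upper 25% of the Ent-Pro DHS list were of the second kind. This is not particular to ATOH1 sites, since Ent-Pro DHS without a Sec-Pro DHS were nearly absent there in general. The highest percentile over all 11510 of them was 76.5, and of the 10813 without an ATOH1 peak 1 was in the upper 25%. The number of sites also followed the length of the DHS lists. With both lists limited to the same number of peaks by score, 642 sites met the rule and 418 were open in Sec-Pro only. With only the upper 50% of the Ent-Pro list these numbers were 260 and 870, and with only the upper 50% of the Sec-Pro list they were 1522 and 60. Which of the ATOH1 peaks are open in 1 progenitor, and in which, therefore changed with the threshold of the lists.

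Most of the sites carried histone marks, and in the secretory as well as the absorptive populations. H3K27ac was present in Sec-Pro at 518 sites (64.4%, interval 61.1 to 67.7%), against 47.7% of all ATOH1 peaks. In Ent-Pro it was present at 559 sites (69.5%, interval 66.3 to 72.6%), against 51.4% of all ATOH1 peaks. Both shares exceeded that background by more than their counting error. The sites thus had a peak of an activity mark in Sec-Pro in most cases although they had no DHS peak there.

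The 7 H3K4me2 lists covered from 50.4 to 79.5% of the sites. In Sec-Pro, H3K4me2 was found at 521 sites after Rbpj deletion (64.8%, background 48.8%) and at 616 after DBZ (76.6%, background 58.9%). In Ent-Pro it was found at 620 sites in replicate 1 (77.1%, background 58.1%) and at 543 in replicate 2 (67.5%, background 49.7%). The Ent-Pro replicates, which share a label, thus differed from each other, as did the Sec-Pro preparations. In each pair the higher share came from the list whose shortest peak is 146 bp (DBZ, Ent-Pro replicate 1) and the lower from the list whose shortest peak is 200 bp (Rbpj-/-, Ent-Pro replicate 2). The 146 bp lists were also the longer ones, with 92279 (DBZ) and 85881 peaks (Ent-Pro replicate 1). The 200 bp lists held 63293 (Rbpj-/-) and 64138 (Ent-Pro replicate 2). The mean share was 72.3% ± 6.77 (SD, n = 2) in Ent-Pro and 70.7% ± 8.36 (SD, n = 2) in Sec-Pro. The difference was 1.62 points (exact permutation test over libraries, two-sided p = 0.667). The Sec-Pro libraries are different preparations, so their SD is not a spread between replicates. With a smallest possible p of 0.333, the test cannot decide whether the populations differ. Within lists of the same shortest peak, Ent-Pro minus Sec-Pro was 0.498 points (146 bp, interval including 0) and 2.74 points (200 bp). In the differentiated cells, 639 sites had H3K4me2 in GOB (79.5%, background 62.8%) and 576 in ENT (71.6%, background 55%). The lowest count was that of ISC, with 405 sites (50.4%, background 37.7%).

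**Figure D2:**
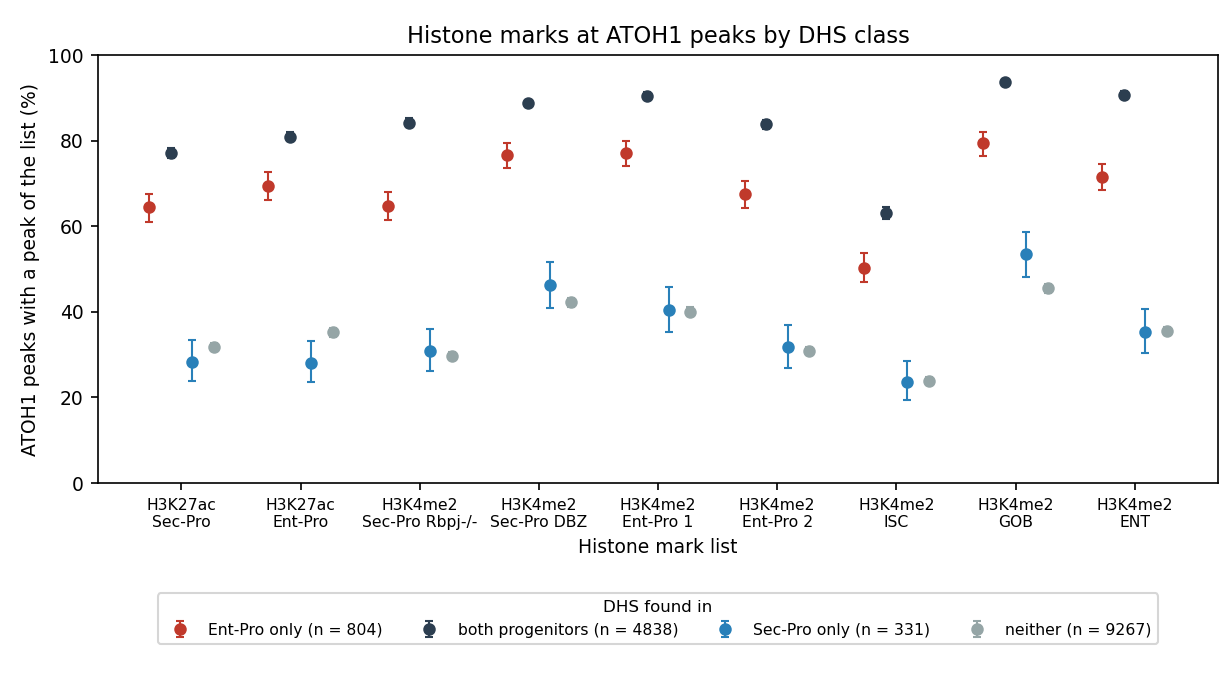
Share of ATOH1 peaks (vertical axis, %) with a peak of each of the 9 histone lists (horizontal axis), by DHS class, with Wilson 95% intervals. In every list the 804 sites open in Ent-Pro only lie below the 4838 open in both progenitors and above the 331 open in Sec-Pro only and the 9267 in neither.

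In every histone list the sites stood between the other open classes. Their shares were lower than those of the peaks open in both progenitors by values from -11.4 points (interval -14.9 to -8.15; H3K27ac in Ent-Pro) to -19.4 points (interval -22.9 to -16.0; H3K4me2 in Sec-Pro without Rbpj). They were higher than those of the peaks open in Sec-Pro only by 26.0 points (interval 19.9 to 32.0; H3K4me2 in GOB) to 41.4 points (interval 35.4 to 46.9; H3K27ac in Ent-Pro). With only the upper 50% of the Sec-Pro DHS list, which leaves 60 peaks open in Sec-Pro only, the latter difference was 0.804 points for H3K4me2 with DBZ, 4.55 for GOB and 4.30 for ISC, each with an interval that includes 0. H3K27ac in Sec-Pro itself was found at 64.4% of the 804 sites but at only 28.4% of the peaks open in Sec-Pro only. For the peaks in neither DHS list the shares were lower than at the 804 sites by 26.5 points (ISC) to 37.0 points (Ent-Pro replicate 1).

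A pair of combinations out of many held about 50% of the sites. All 9 histone lists had a peak at 317 sites (39.4%), against 27.5% of all ATOH1 peaks, and no list had one at 121 sites (15.0%), against 30.3%. These 2 combinations held 438 of the 804 sites (54.5%), and 97 combinations occurred in all. A further 105 sites (13.1%, background 8.74%) had a peak in every list but that of ISC, the list that covers the fewest bases. A single list was present at 30 sites (3.73%, background 5.43%), and at 17 of these it was the GOB list (2.11%, background 2.8%). H3K27ac without H3K4me2 in any list was seen at 6 sites (0.746%, background 1.31%). The opposite, H3K4me2 in all 4 progenitor lists without H3K27ac in either progenitor, was seen at 34 sites (4.23%, background 4.93%), close to the background.

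**Figure D3:**
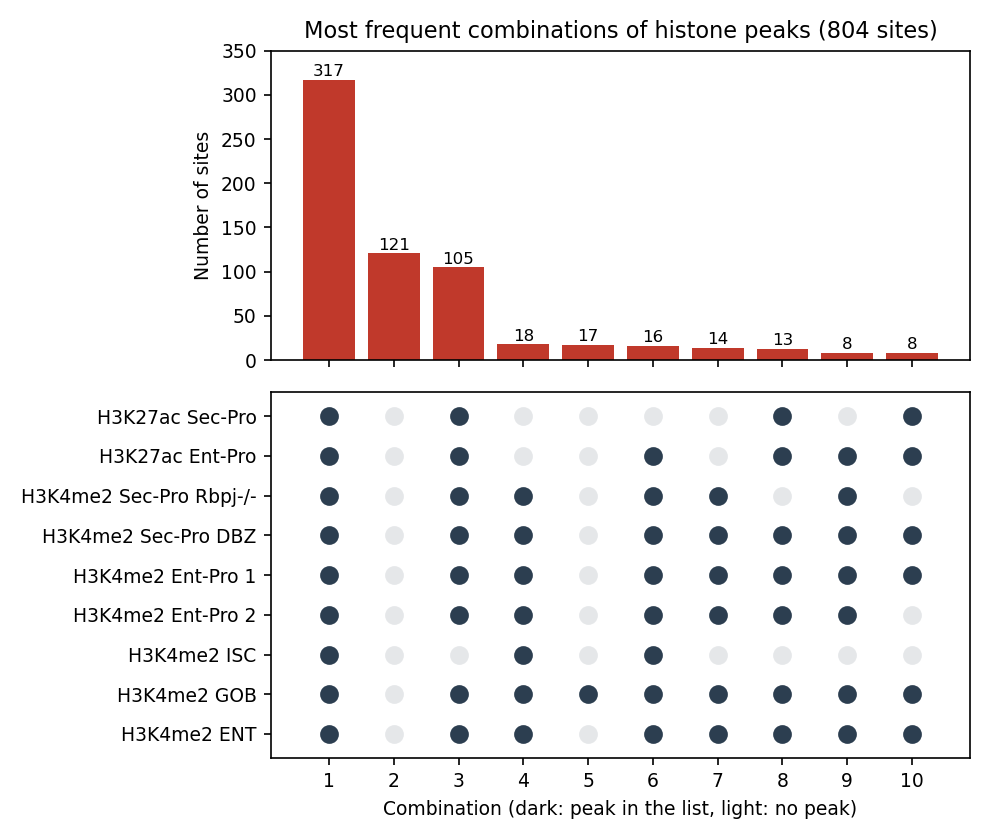
Number of sites (bars, upper panel) with each of the 10 most frequent combinations of peaks in the 9 histone lists (lower panel, dark dot for a peak and light dot for none). The first combination, with 317 sites, has all lists, the second, with 121, none, and the third, with 105, all but ISC.

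The progenitor difference seen in the DHS lists was hardly mirrored by H3K27ac. Both progenitors had an H3K27ac peak at 506 sites (62.9%, background 45.4%) and neither had one at 233 (29.0%, background 46.2%). Ent-Pro alone had one at 53 sites (6.59%, interval 5.07 to 8.52%), which is near the background of 6.04% of all ATOH1 peaks, and Sec-Pro alone at 12 sites (1.49%, interval 0.856 to 2.59%, background 2.4%). The share with H3K27ac was higher in Ent-Pro than in Sec-Pro by 5.10 points (interval 3.15 to 7.05). Among the peaks open in both progenitors the same difference was 3.89 points, and the difference between these classes was 1.21 points with an interval of -0.863 to 3.29, which includes 0. Among the peaks open in Sec-Pro only the difference was -0.302 points, lower than at the 804 sites by 5.40 points (interval 1.89 to 8.92). An excess of Ent-Pro H3K27ac was thus present at the sites, but it was not shown to differ from that at ATOH1 peaks open in both. With only the upper 50% of the Ent-Pro DHS it was 1.54 points, with an interval that includes 0.

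Where H3K27ac was found in Ent-Pro alone, its peaks were small. The 53 sites had Ent-Pro H3K27ac peaks with a median percentile of 55.7 and a median width of 642 bp, whereas at the 506 sites with H3K27ac in both progenitors these were 83.8 and 1961 bp. Of the 53, 38 had H3K4me2 in both Ent-Pro lists (4.73% of the 804, background 3.23%), 30 in both Sec-Pro lists (3.73%, background 2.91%) and 3 in no progenitor list (0.373%, background 0.906%). H3K4me2 was present in GOB at 46 of them (5.72%, background 4.57%) and in ENT at 39 (4.85%, background 3.71%). Of the 920 ATOH1 peaks of any class with H3K27ac in Ent-Pro alone, the same counts were, in this order, 492, 444, 138, 696 and 566. The 53 sites were thus mostly marked by H3K4me2 in the secretory cells as well.

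H3K4me2 also rarely followed the DHS. It was found in all 4 progenitor lists at 494 sites (61.4%, background 45.2%) and in none at 160 (19.9%, background 37.4%). Only 1 site had it in both Ent-Pro lists and in neither Sec-Pro list (0.124%, background 0.367%), and only 1 the opposite (0.124%, background 0.21%). The sites with H3K4me2 in both Ent-Pro lists numbered 539 (67.0%, background 48.9%) and those with it in both Sec-Pro lists 514 (63.9%, background 47.8%), a difference of 3.11 points (interval 1.14 to 5.08). At the peaks open in both progenitors it was 0.186 points, and the difference between these classes was 2.92 points (interval 0.840 to 5.01). The difference from the peaks open in Sec-Pro only was 2.51 points (interval -1.25 to 6.26) and from those in neither list 1.63 points (interval -0.404 to 3.67), both intervals including 0. This small excess depended on the lists that were compared. Within the lists of shortest peak 146 bp, Ent-Pro replicate 1 against Sec-Pro with DBZ, the excess was 0.498 points (interval -1.22 to 2.22). Its difference from the peaks open in both was -1.30 points (interval -3.12 to 0.519). From those open in Sec-Pro only it was 6.24 points (interval 2.16 to 10.3). From those in neither list it was 2.66 points (interval 0.841 to 4.48). Within the lists of shortest peak 200 bp, Ent-Pro replicate 2 against Sec-Pro without Rbpj, the excess was 2.74 points (interval 0.690 to 4.78). Its difference from the peaks open in both was 3.13 points (interval 0.968 to 5.29). From those open in Sec-Pro only (1.83 points) and in neither list (1.40 points) the intervals included 0. The excess of 3.11 points became -9.58 points when the Rbpj-/- list was left out and 13.2 points when Ent-Pro replicate 2 was. In these cases 1 list was required on that side and both on the other.

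In the differentiated cells, H3K4me2 was found at more of the sites in GOB than in ENT, by about as much as over all ATOH1 peaks. Goblet cells had it without enterocytes at 69 sites (8.58%, interval 6.84 to 10.7%, background 9.14%), enterocytes without goblet cells at 6 (0.746%, interval 0.342 to 1.62%, background 1.37%), and both at 570 (70.9%, background 53.6%). The share in GOB exceeded that in ENT by 7.84 points (interval 5.79 to 9.92), close to the 7.77 points over all ATOH1 peaks. At the peaks open in both progenitors the excess was 2.997 points, and the sites exceeded them by 4.84 points (interval 2.72 to 6.99). At the peaks open in Sec-Pro only it was 18.1 points, and the sites lay lower by -10.3 points (interval -15.0 to -5.41). At the peaks in neither DHS list it was 9.88 points, and the difference of the sites from them was -2.05 points (interval -4.22 to 0.161). The excess is thus not particular to the 804 sites. The GOB list and the ENT list come from mice of different genotype (Rbpj-/- and Atoh1-/-) and have 1 library each.

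Of the 69 sites with H3K4me2 in GOB and not ENT, 26 had H3K27ac in Sec-Pro (3.23% of the 804, background 2.69%). H3K27ac in Ent-Pro was found at 31 (3.86%, background 3.1%), and 20 had H3K4me2 in no progenitor list (2.49%, background 3.64%). Over all ATOH1 peaks, 1393 had H3K4me2 in GOB and not ENT, and of these the same counts were 410, 473 and 554. Whether the 69 differ from the 1393 was not tested. The GOB peaks of the 69 sites were narrow, with a median width of 448 bp and a median percentile of 45.6. At the 570 sites with H3K4me2 in both these were 1505.5 bp and 81.7. In the split by DHS, 67 of the 69 lay in a DHS of Ent-Pro alone, as did 695 of all 804 sites (86.4%).

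The sites at the flank of a shared DHS differed from the others in their marks. The 2 groups also differed in DHS strength, as all 49 sites in the upper 25% of the Ent-Pro DHS list were at such flanks. Ent-Pro DHS without a Sec-Pro DHS were nearly absent from that part of the list, with or without an ATOH1 peak. Whether the differences in marks follow DHS strength was not tested. The 695 sites whose Ent-Pro DHS met no Sec-Pro DHS had H3K27ac in Ent-Pro in 68.1% of cases and H3K4me2 in ISC in 46.3%. For the 109 sites of a shared DHS these shares were 78.9% and 76.1%, higher than the former by more than counting error, since the differences of the first group from the second were -10.8 points (interval -18.3 to -1.63) and -29.8 points (interval -37.7 to -20.3). No histone mark was found at 117 of the 695 and at 4 of the 109. The difference of H3K27ac between Ent-Pro and Sec-Pro was 5.76 points (interval 3.63 to 7.88) in the 695 and 0.917 points (interval -4.41 to 6.30) in the 109.

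Because the sites had weaker DHS than those open in both progenitors, shares were also compared within bands of 25% of the Ent-Pro DHS list by score. These bands were chosen after the data were examined. Within them the order of the classes was reversed for H3K27ac. In the lowest band, 125 of 236 sites (53.0%) had H3K27ac in Ent-Pro, against 49 of 158 peaks open in both (31.01%), a difference of 22.0 points (interval 12.05 to 31.1). In the next band it was 218 of 308 (70.8%) against 177 of 381 (46.5%), a difference of 24.3 points (interval 17.0 to 31.2). In the band from percentile 50 to 75 it was 170 of 211 (80.6%) against 912 of 1342 (68.0%), a difference of 12.6 points (interval 6.26 to 18.02). In the highest band, which holds only sites at the flank of a shared DHS, it was 46 of 49 (93.9%) against 2779 of 2957 (94.0%).

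H3K27ac in Sec-Pro, where the sites have no DHS peak, gave the same order, with differences of 16.2 points (interval 6.41 to 25.4), 20.9 points (interval 13.4 to 28.0) and 16.5 points (interval 9.92 to 22.1) in the 3 lower bands. With the 695 sites of an unshared DHS alone, the differences in Ent-Pro H3K27ac were 22.4, 24.6 and 15.3 points. Within the bands the sites still had the weaker DHS: the median percentiles were 12.04 against 17.1, 37.7 against 40.7 and 58.2 against 66.6. What underlies the higher H3K27ac shares was not tested.

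H3K4me2 differed from H3K27ac in the band from percentile 50 to 75. For the DBZ list the differences from the peaks open in both were 18.4, 15.0 and -1.24 points in the 3 lower bands, the last with an interval of -6.45 to 2.76. For the GOB list they were 9.13 points (interval -0.726 to 18.9), 13.4 points (interval 6.93 to 19.6) and -4.00 points (interval -9.15 to -0.0784). In ISC they were 7.75 points (interval -1.72 to 16.7), 7.83 points (interval 0.391 to 15.2) and -5.13 points (interval -12.3 to 1.71). All 7 H3K4me2 lists were below the peaks open in both in the band from 50 to 75, and for 6 of them the interval included 0. In the highest band, which holds 49 of the sites, all of them at the flank of a shared DHS, the H3K4me2 differences had the opposite sign. They were 27.2 points in ISC (interval 16.7 to 31.6), 8.96 points in Sec-Pro without Rbpj (interval 1.63 to 10.05) and 9.57 points in Ent-Pro replicate 2 (interval 2.23 to 10.7), and in the other 4 lists, from 0.406 to 5.92 points, the interval included 0.

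**Figure D4:**
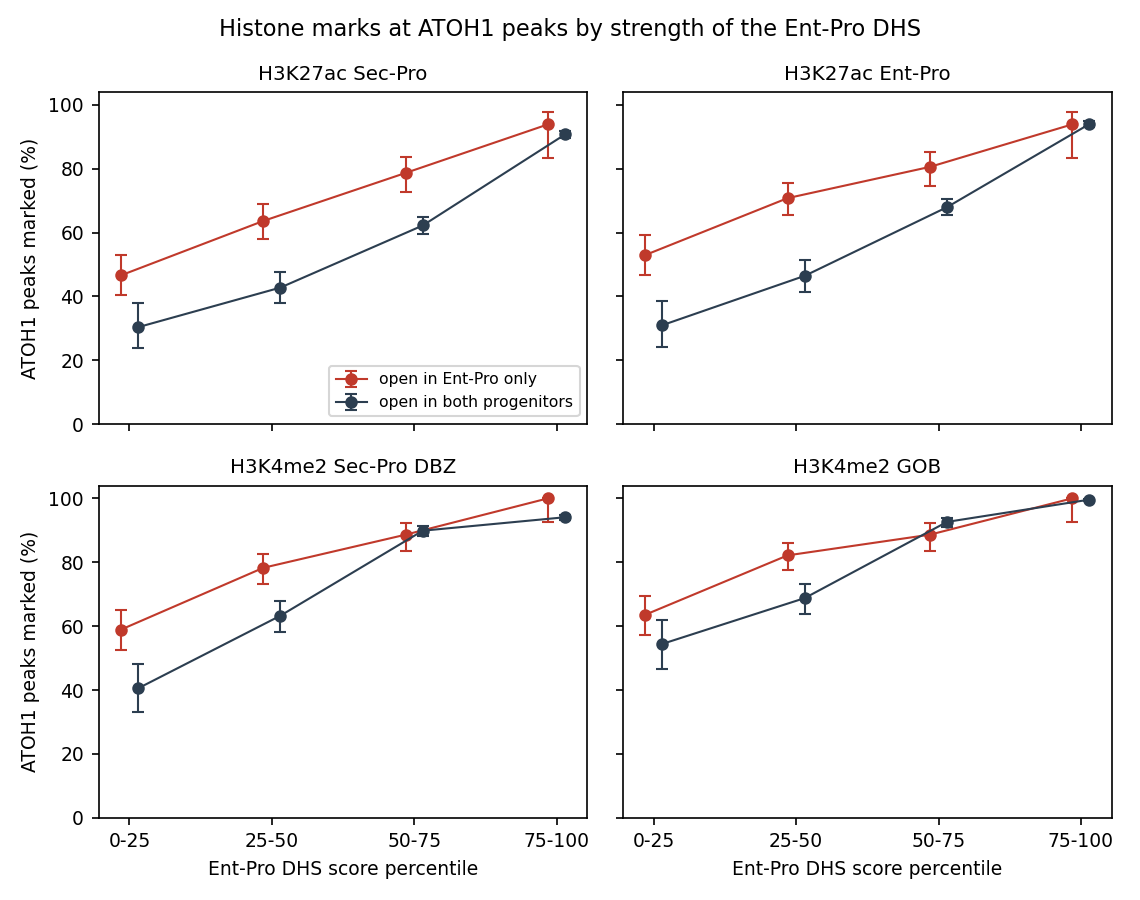
Share of ATOH1 peaks (vertical axis, %) with a peak of 4 of the histone lists, by band of 25% of the Ent-Pro DHS list by score (horizontal axis), with Wilson 95% intervals. For H3K27ac the sites open in Ent-Pro only lie above those open in both progenitors in the 3 lower bands. In the lowest these shares are 53.0 against 31.01% for Ent-Pro. For H3K4me2 the differences in the band from 50 to 75 are -1.24 points (DBZ, interval including 0) and -4.00 points (GOB, interval below 0).

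Among DHS found in Ent-Pro and not in Sec-Pro, those with an ATOH1 peak were marked more often. There were 11510 such DHS (29.8% of the Ent-Pro list), of which 697 (6.06%) held an ATOH1 peak, which compares with 16.9% of the 27085 Ent-Pro DHS that met a Sec-Pro DHS and 6.15% of the 4683 Sec-Pro DHS without an Ent-Pro DHS. H3K27ac in Ent-Pro was present at 70.2% of the 697 and at 27.6% of the 10813 without ATOH1, a difference of 42.6 points (interval 39.0 to 45.9), where 46.1% of all Ent-Pro DHS had it. For H3K4me2 in GOB the shares were 77.5% and 31.5%, a difference of 46.0 points (interval 42.6 to 49.1), where 59.6% of all Ent-Pro DHS had it. The smallest difference of the 9 lists was that of ISC, at 30.4 points (interval 26.6 to 34.2), the list that covers the fewest bases. Over all Ent-Pro DHS, H3K27ac in Sec-Pro was found at 42.9%, and H3K4me2 at 53.8% in Sec-Pro without Rbpj, 57.9% with DBZ, 58.3% and 53.6% in Ent-Pro replicates 1 and 2, 45.2% in ISC and 57% in ENT. Within the 3 lower bands of DHS score the difference in Ent-Pro H3K27ac was 37.2, 39.3 and 13.9 points. The highest band held no Ent-Pro-only DHS with an ATOH1 peak and only 1 without.

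The sites were named by a rule: those with the highest ATOH1 score, those of each rarer mark combination with the highest ATOH1 score, and those with the strongest Ent-Pro DHS. Positions are 1-based, in build mm9. The site with the highest ATOH1 score, 290.6, was chr8:86874494-86875375. It had peaks in all 9 histone lists. Its Ent-Pro DHS was at percentile 51.4, and the ATOH1 peak was 5073 bp from the nearest Sec-Pro DHS. Its H3K27ac score was 9.51 in Sec-Pro (percentile 46.8) and 89.2 in Ent-Pro (percentile 85.1), so that the mark ranked higher in the Ent-Pro list.

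The sites in places 2 and 3 by ATOH1 score were also marked by H3K27ac in Ent-Pro alone. At chr2:130863101-130863745 the ATOH1 score was 177.4 and the Ent-Pro DHS weak, at percentile 17.9. It had H3K27ac in Ent-Pro (score 10.03) and H3K4me2 in Sec-Pro with DBZ, Ent-Pro replicate 1 and ISC, and no peak in the other 5 lists, GOB and ENT included. At chr5:75644302-75644719 the ATOH1 score was 169.9 and the Ent-Pro H3K27ac score 11.9, and H3K4me2 was found in GOB and not in ENT. It too had H3K4me2 in DBZ-treated Sec-Pro and in both Ent-Pro replicates, and its nearest Sec-Pro DHS was 704 bp away.

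The sites in places 4 to 6 had H3K27ac in both progenitors. At chr13:46714982-46715291 (ATOH1 score 166.6) the H3K27ac score was 28.8 in Sec-Pro and 86.6 in Ent-Pro, and all 9 lists had a peak. Its nearest Sec-Pro DHS was 595 bp away. At chr13:29126332-29126738 (ATOH1 score 138.5) these scores were 23.2 and 104.7, again with all 9 lists, and the nearest Sec-Pro DHS was 18031 bp away. At chr17:12398057-12398520 (ATOH1 score 135.3) they were 6.99 and 51.8, and ISC was the only list without a peak. Scores of different lists are on the scale of each list and were not compared as levels.

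Further sites with H3K27ac in Ent-Pro alone were chr9:77371702-77371916 (ATOH1 score 40.6), which had H3K4me2 in Ent-Pro replicate 1, GOB and ENT and in neither Sec-Pro list, and chr6:34255022-34255272 (ATOH1 score 36.5), which had it in DBZ-treated Sec-Pro, both Ent-Pro replicates, GOB and ENT. The reverse, H3K27ac in Sec-Pro alone, was led by chr6:53984475-53984868 (ATOH1 score 49.8), with a Sec-Pro H3K27ac score of 24.4 and H3K4me2 in Ent-Pro replicate 1, GOB and ENT. Next were chr8:123786963-123787243 (ATOH1 score 23.9) and chr3:55030870-55031071 (ATOH1 score 11.3), both with H3K4me2 in all 7 lists. The last, chr17:45733832-45734231 (ATOH1 score 9.98), had the GOB H3K4me2 peak with the highest score of the 4, 186.6, and no peak in ENT. At these 4 sites the Sec-Pro list had the acetylation peak and the Ent-Pro list the DHS. In the order given, the nearest Sec-Pro DHS was 4436, 151, 15244 and 1082 bp away, so that 1 lay close to the second site.

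Among the sites with H3K4me2 in GOB and not ENT, chr13:3641341-3641611 (ATOH1 score 98.4) had only the GOB peak (score 8.31) and a DBZ peak at the lowest score of that list, 2.02. The other, chr12:113041778-113042271 (ATOH1 score 76.3), had H3K27ac in both progenitors. With H3K4me2 in ENT and not GOB, chr17:66928566-66928929 (ATOH1 score 58.7) had H3K27ac in both progenitors and no H3K4me2 but that of ENT. The same combination of ENT without GOB was found at chr15:77623578-77623901 (ATOH1 score 46.9) and chr10:9515370-9515626 (ATOH1 score 13.8), also with H3K27ac in both progenitors.

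Sites without a peak in any histone list could have high ATOH1 scores. The highest were chr19:4989050-4989308 (ATOH1 score 52.5, percentile 97.1), chr11:114705529-114705787 (34.4, percentile 94.2) and chr15:84659898-84660136 (28.4, percentile 92.2). Their Ent-Pro DHS were at percentiles 60.5, 9.18 and 4.08. The sites with the strongest Ent-Pro DHS had marks in 8 or all 9 of the histone lists, and their ATOH1 peaks were from percentile 4.28 to 76.3 of the ATOH1 list. At chr1:64783629-64783788 the DHS was at percentile 99.4 and the ATOH1 peak at percentile 4.28, and a Sec-Pro DHS lay 49 bp away. At chr8:86497249-86497449 the ATOH1 peak was at percentile 76.3, only 2 bp of it were under the DHS and a Sec-Pro DHS lay 25 bp away. At chr4:134909519-134909686 the ATOH1 peak was at percentile 44.4 and the Sec-Pro DHS lay 150 bp away. In these 3 cases the Ent-Pro DHS was itself overlapped by the Sec-Pro DHS, so that they belong to the 109 sites at the flank of a shared DHS.

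**Figure D5:**
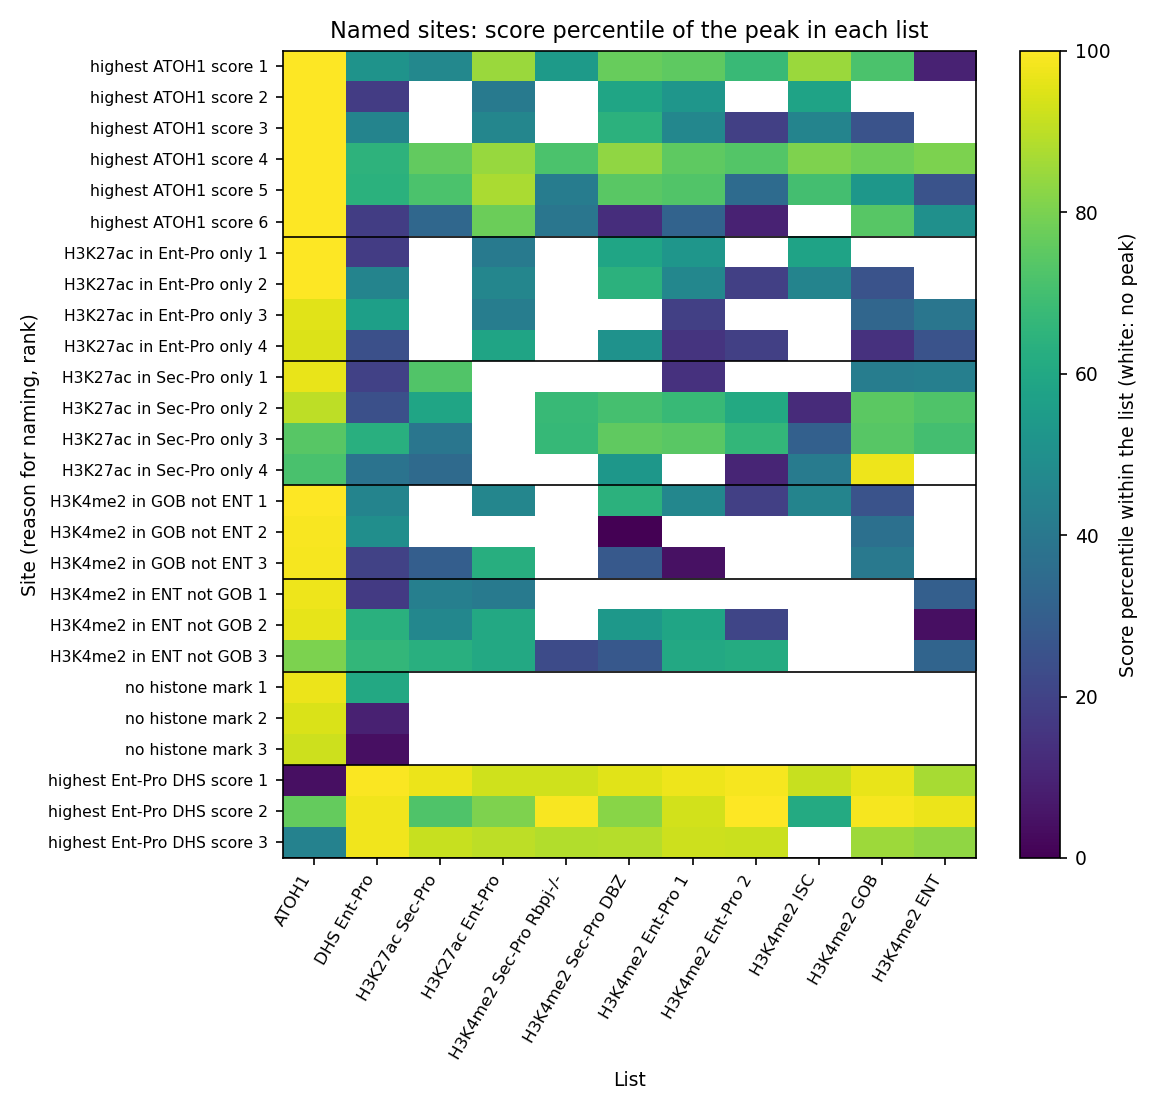
Score percentile of the peak in each list (colour, 0 to 100, white for no peak) for the named sites (rows, grouped by the reason for naming and ordered by ATOH1 score, or by DHS score in the last group; 23 different sites in 26 rows) in the ATOH1, Ent-Pro DHS and 9 histone lists (columns). The sites with the strongest Ent-Pro DHS have high percentiles in most histone lists, and the 3 without histone marks have ATOH1 percentiles from 92.2 to 97.1.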

How the data were processed

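Peak lists from chromatin immunoprecipitation sequencing and DNase-seq were compared by position. The authors deposited 1 list per library, without a header, and its last column is a score whose meaning the files do not name; it served only to rank, filter and describe peaks within a list. The submitters' processing notes name MACS2, Bowtie 0.12.7, CASAVA 1.7 and build mm9, and the sources used here give neither parameters nor the use of input DNA.

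Lists were intersected with NumPy 2.4.6 (Python 3.11.15), intervals were computed with SciPy 1.17.1, at least 1 bp counted as overlap, and the number of sites was checked with bedtools 2.31.1. The overlap code and intervals were tested on simulated data. Figures were drawn with matplotlib 3.10.9. Groups follow the sample titles. The sites, lists and naming rule were chosen with earlier results of these data known. The naming rule takes the 6 sites of highest ATOH1 score; the highest by ATOH1 score with H3K27ac in 1 progenitor alone (4 each), with H3K4me2 in GOB or ENT alone (3 each) and with no mark (3); and the 3 of highest Ent-Pro DHS score. The exact permutation test over H3K4me2 libraries (SciPy), the DHS bands, the split by shared DHS, the neighbour counts and the division by ATOH1 score were chosen after seeing the data. Whole-list alternatives included other overlaps, score limits and left-out libraries. Genes near the sites, their sequences and a search for E-box motifs were not analysed here, because no mm9 genome or annotation was used.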

Additional observations from a re-analysis of the deposited data

How the results depend on the processing

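The number of sites, 804, stayed within 1.5 times under 7 of the 10 alternatives that change which sites are taken, and was 260 with the upper 50% of the Ent-Pro DHS, 480 with the upper 50% of the ATOH1 peaks and 1522 with the upper 50% of the Sec-Pro DHS, the last added after seeing the data. The differences from the peaks open in Sec-Pro only kept their direction, with an interval that excludes 0, in 119 of the 122 combinations of list and alternative that change the value, the exceptions being DBZ, GOB and ISC with the upper 50% of the Sec-Pro DHS. Those from the peaks open in both progenitors did so in 117 of 122. The exceptions here came with the upper 50% of the Ent-Pro DHS, where the latter were -0.295 points (H3K27ac in Sec-Pro), -2.78 (H3K27ac in Ent-Pro), -2.00 (H3K4me2 with DBZ), -2.89 (Ent-Pro replicate 2) and 0.512 (ISC), the last with the opposite sign. The excess of GOB over ENT kept its direction and its interval above 0 under every alternative run. The H3K27ac excess in Ent-Pro was 1.54 points with the upper 50% of the Ent-Pro DHS, with an interval that includes 0. The H3K4me2 excess in Ent-Pro, 3.11 points, had an interval that includes 0 with the upper 50% of the Ent-Pro DHS (1.15), with histone peaks within 500 bp (0 points), with the 146 bp lists alone (0.498) and with the upper 50% of both DHS lists (1.77). Leaving out 1 library gave from -9.58 to 13.2 points, because 1 list was then asked of 1 side and both of the other, and from 15.0 to 15.8% for the sites without marks. No analysis paired by replicate was possible, because only H3K4me2 in Ent-Pro has more than 1 replicate.

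The shares themselves moved by more than their interval in 85 of the 138 cases where the alternative changes them, without a test. In the order H3K27ac in Sec-Pro and Ent-Pro, H3K4me2 in Rbpj-/- and DBZ Sec-Pro, Ent-Pro replicates 1 and 2, ISC, GOB and ENT, and no mark, they were 81.5, 83.1, 83.8, 90.8, 91.2, 85.4, 66.9, 90.8, 87.7 and 3.46% with the upper 50% of the Ent-Pro DHS. With the upper 50% of both DHS lists, added after seeing the data, they were 74.1, 79.4, 80.1, 88.3, 88.7, 81.7, 61.2, 89.0, 84.8 and 5.50%. With the upper 50% of the Sec-Pro DHS, H3K27ac was 58.3% in Sec-Pro and 63.8% in Ent-Pro, H3K4me2 was 72.5% with DBZ, 72.7% in Ent-Pro replicate 1 and 76.2% in GOB, and 18.5% had no mark. In the order above, with DHS lists of equal length they were 69.6, 74.0, 69.6, 81.3, 82.2, 72.4, 54.0, 83.6, 76.3 and 10.3%. With a histone peak over at least 50% of the ATOH1 peak they were 53.9, 64.4, 53.1, 65.2, 67.9, 58.3, 36.2, 74.4, 65.2 and 19.3%. With the upper 50% of each histone list they were 54.6, 62.3, 48.6, 65.8, 66.7, 51.0, 31.5, 68.9, 59.6 and 21.6%. In the same order, but without Ent-Pro H3K27ac, they were 60.3, 56.6, 71.7, 72.8, 60.8, 42.4, 75.7, 66.4 and 17.9% at sites with no Sec-Pro DHS within 1 kb. With histone peaks within 500 bp and without GOB they were 71.3, 75.4, 72.9, 81.5, 80.6, 73.4, 67.0, 76.4 and 12.7%. With the upper 50% of the ATOH1 peaks, H3K27ac was 69.0% in Sec-Pro and 74.4% in Ent-Pro, H3K4me2 was 81.9% with DBZ, 82.9% in Ent-Pro replicate 1 and 84.8% in GOB, and 8.33% had no mark. With histone lists of equal length DBZ was 71.9% and Ent-Pro replicate 1 73.4%. At the 695 sites of an unshared DHS, also added after seeing the data, Rbpj-/- was 60.9% and ISC 46.3%, and with at least 50% of the ATOH1 peak under the DHS ISC was 45.8%. The cause of these changes was not tested. Depth is unknown, and no condition but Ent-Pro H3K4me2 has a replicate of the same label, so that neither the spread between animals nor a missed peak can be given an error.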

Other observations

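The sites were more often near other ATOH1 peaks than most classes. Another ATOH1 peak lay within 10 kb of 463 of the 804 sites (57.6%, interval 54.1 to 61.0%), against 48.9% of the peaks open in both progenitors, a difference of 8.66 points (interval 4.94 to 12.3), and 48.3% of those in neither DHS list, a difference of 9.28 points (interval 5.68 to 12.8). Peaks open in Sec-Pro only had a neighbour in 55.9% of cases, and the difference of 1.696 points had an interval of -4.58 to 8.05. A neighbour open in both progenitors was found for 196 sites (24.4%), against 28.1% of the peaks open in both themselves. That difference was -3.69 points (interval -6.81 to -0.363). Peaks in neither DHS list had such a neighbour in 20.2% of cases, a difference of 4.18 points (interval 1.22 to 7.37). For peaks open in Sec-Pro only it was 26.0%, and the interval of the difference included 0.

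Marks were less frequent at the sites of lowest ATOH1 score. Of the 25% of the 804 sites with the lowest ATOH1 score, 118 of 205 (57.6%) had H3K27ac in Ent-Pro and 60 (29.3%) had no histone mark. Among the 25% with the highest score these were 149 of 201 (74.1%) and 16 (7.96%). Over all ATOH1 peaks of any score the shares were 51.4% and 30.3%. The other ATOH1 peaks were not divided by score, so it is not known whether this trend is particular to the sites. H3K4me2 in GOB and not ENT was found at 10 of 205 sites of the lowest band of 25% (4.88%) and at 11 of 201 of the next (5.47%). It was found at 30 of 197 of the one after (15.2%) and at 18 of 201 of the highest (8.96%), against 9.14% of all ATOH1 peaks. H3K27ac in Ent-Pro and not Sec-Pro varied little, from 12 to 14 sites per band (5.97 to 6.97%), near the 6.04% of all ATOH1 peaks.

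On chromosome X lay 3 of the 804 sites, of 153 ATOH1 peaks there (1.96%), against 5.28% over all ATOH1 peaks, and on the numbered chromosomes the share went from 2.87% (chromosome 18) to 6.29% (chromosome 15).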
